A study of Mus musculus with 5 samples.

Results

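Histone acetylation peaks were examined at 9 genes of proximal T cell receptor (TCR) signalling, *Lck*, *Fyn*, *Zap70*, *Lat*, *Lcp2*, *Plcg1*, *Vav1*, *Prkcq* and *Ptprc*, out of 21911 protein-coding genes of the mouse annotation. The genes were listed by their place in the pathway, and every peak in the gene body or within 10 kb on either side of it was taken. Peak lists came from ChIPseq of memory (TM) CD8 T cells, with 2 libraries labelled wildtype (WT) and 3 labelled PDH_Mutant, the cells that the study calls *TPdh*-/-. *TPdh*-/- mice were made by crossing *B6.129P2-Pdha1tm1ptl/J* mice, which carry a conditional allele of the pyruvate dehydrogenase subunit gene *Pdha1*, with *B6.Cg-Tg(Cd4-cre)1Cwi/BfluJ* mice, so that the Cd4 promoter drives Cre in developing T cells. By the study's methods, T cells of adult male and female mice carrying the OT-I receptor were stimulated with ovalbumin peptide and then kept in IL-15 to obtain TM cells. All 5 libraries were made with the same antibody, ab1191, which the methods describe as directed at acetylated lysine of histones and for which the sample labels name acetyl K18. The sources used here do not say whether WT mice carried Cre, nor whether each library came from its own animal, so the spread between libraries may in part be technical.

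In a resting T cell the phosphatase CD45, encoded by *Ptprc*, keeps the Src family kinases Lck and Fyn ready to act. When the receptor binds peptide and MHC, these kinases phosphorylate its CD3 and zeta chains, Zap70 docks there, and Zap70 in turn phosphorylates the membrane adaptor Lat and the cytosolic adaptor SLP-76, the product of *Lcp2*. The exchange factor Vav1 and the phospholipase Plcg1 assemble on these adaptors, and the diacylglycerol that Plcg1 makes recruits protein kinase C theta, the product of *Prkcq*. Acetylation of histone tails is commonly found at active promoters and enhancers.

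A peak list does not measure the *Pdha1* deletion itself. The lists held 15962 and 8859 peaks in WT replicates 1 and 2, and 4920, 5419 and 9418 peaks in *TPdh*-/- replicates 1, 2 and 3, so a count of peaks moves with the length of the list. The lists give no reads per peak, so depth is unknown. Each peak has a fold enrichment, a linear ratio over the background that the peak caller estimated, and a −log10 q. Its strength is given here as a percentile, the share of peaks in the same list with a lower −log10 q. Of 8 T cell markers (Cd3e, Cd3d, Cd3g, Cd247, Cd2, Cd28, Bcl11b and Tcf7), 7 and 4 had a promoter peak in the WT libraries and 0, 3 and 6 in the *TPdh*-/- libraries, so the library *TPdh*-/- 1 had none of them. Of Cd8a and Cd8b1, 2 and 1 were called in WT and 1 in each *TPdh*-/- library, and of Cd4 and Zbtb7b, 2 and 1 in WT and 0 in *TPdh*-/-. Of 4 B cell markers, 1 was called in WT replicate 1, while 4 myeloid, 2 NK cell and 4 other tissue markers had no promoter peak in any library.

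The sequences below are those on which the member results turn, with coordinates of GRCm38 and 5′ to 3′ on the strand given. Promoter sequences were taken from the RefSeq table of GRCm38.p6, which held 13 promoters for the 9 genes, and stop before the transcript. The promoters of *Zap70* (chr1:36761548-36761797, + strand) and *Ptprc* (chr1:138175307-138175555, − strand) are shown because both were called in all 5 libraries and ranked highest. Those of *Fyn* (chr10:39369549-39369763, + strand) and *Vav1* (chr17:57278850-57279099, + strand) are shown because their promoters were called in the fewest libraries. The 2 promoters of *Lck*, distal (chr4:129573642-129573891, − strand) and proximal (chr4:129558392-129558622, − strand), are shown because different libraries had a peak at each. The intronic stretches of *Prkcq* (chr2:11203881-11204180, + strand) and *Fyn* (chr10:39479184-39479483, + strand) are the centres of intronic regions called in all 5 libraries. The *Lck* and intronic sequences were chosen after their values were seen. None overlaps an annotated exon. The promoter sequences of *Fyn* and *Ptprc* and the proximal *Lck* promoter lie in introns of annotated transcripts that start farther upstream.
Capitals mark matches to CCGGAA, a strict form of the ETS factor motif, to ACCACA, a RUNX core, or to CACGTG, an E-box, on either strand. Other forms of these motifs, among them GGAA after other letters, were not searched and stand unmarked. No sequence shown held more than 1 match.
Zap70 promoter: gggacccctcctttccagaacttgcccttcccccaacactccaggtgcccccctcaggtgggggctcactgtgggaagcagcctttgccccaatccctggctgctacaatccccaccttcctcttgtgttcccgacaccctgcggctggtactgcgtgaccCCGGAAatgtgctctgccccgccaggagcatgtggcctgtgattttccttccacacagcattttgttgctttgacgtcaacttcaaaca
Ptprc promoter: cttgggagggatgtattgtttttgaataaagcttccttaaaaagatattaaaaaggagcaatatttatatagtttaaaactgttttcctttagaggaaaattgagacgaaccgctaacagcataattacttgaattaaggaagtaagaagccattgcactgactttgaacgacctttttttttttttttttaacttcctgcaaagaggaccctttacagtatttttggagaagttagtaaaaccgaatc
Fyn promoter: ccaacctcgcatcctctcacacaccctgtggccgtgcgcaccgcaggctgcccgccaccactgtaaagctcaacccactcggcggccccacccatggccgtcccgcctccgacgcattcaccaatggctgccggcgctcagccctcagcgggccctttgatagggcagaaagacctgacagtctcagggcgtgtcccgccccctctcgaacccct
Vav1 promoter: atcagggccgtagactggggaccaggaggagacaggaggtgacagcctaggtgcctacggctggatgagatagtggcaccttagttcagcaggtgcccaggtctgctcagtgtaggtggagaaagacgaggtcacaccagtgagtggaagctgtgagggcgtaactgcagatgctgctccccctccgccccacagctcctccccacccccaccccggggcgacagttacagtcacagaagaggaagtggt
Lck distal promoter: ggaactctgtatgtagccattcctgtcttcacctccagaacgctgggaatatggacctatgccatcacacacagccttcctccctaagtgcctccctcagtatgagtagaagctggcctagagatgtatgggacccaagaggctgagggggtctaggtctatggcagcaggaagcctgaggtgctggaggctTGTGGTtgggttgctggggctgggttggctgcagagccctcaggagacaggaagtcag
Lck proximal promoter: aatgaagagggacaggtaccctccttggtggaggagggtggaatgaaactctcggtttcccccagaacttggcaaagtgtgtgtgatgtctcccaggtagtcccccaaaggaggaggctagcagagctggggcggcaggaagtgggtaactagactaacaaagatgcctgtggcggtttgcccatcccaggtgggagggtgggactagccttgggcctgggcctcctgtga
Prkcq intronic region: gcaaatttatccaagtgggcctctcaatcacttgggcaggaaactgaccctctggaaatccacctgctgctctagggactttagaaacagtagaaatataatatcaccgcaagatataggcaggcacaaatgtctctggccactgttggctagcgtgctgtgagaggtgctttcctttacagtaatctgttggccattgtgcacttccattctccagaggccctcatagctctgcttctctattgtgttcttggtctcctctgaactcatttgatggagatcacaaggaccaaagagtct
Fyn intronic region: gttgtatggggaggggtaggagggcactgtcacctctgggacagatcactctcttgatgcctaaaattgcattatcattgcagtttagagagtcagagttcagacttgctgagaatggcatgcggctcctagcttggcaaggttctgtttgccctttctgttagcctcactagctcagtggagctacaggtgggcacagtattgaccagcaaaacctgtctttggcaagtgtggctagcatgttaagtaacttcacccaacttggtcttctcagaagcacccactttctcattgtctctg

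The ETS form CCGGAA was present in 1 of the 13 member promoters, that of *Zap70*, against 19.2% of 20150 promoters of protein-coding genes over the same 300 bases. The RUNX core was present in 3 of 13, the distal *Lck* promoter, an internal *Zap70* promoter and that of *Lat*, against 14.7%. The E-box was present in 2 of 13, another internal *Zap70* promoter and that of *Lat*, against 8.03%. At the centres of the 18406 merged peak regions with complete reference sequence the shares were 14.5%, 21.1% and 5.37%. These are matches of letters, not binding sites. The median ratio of observed to expected CpG was 0.341 in the member promoters and 0.588 in all promoters, and the promoters of *Fyn*, *Plcg1* and *Prkcq*, 3 of 13, lay above the 50th percentile of all promoters for this ratio.

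A gene was counted as having a promoter peak where a peak lay within 3000 bp of any of its annotated start sites. Of the 9 genes, 8 had one in WT replicate 1 against 42.1% of all protein-coding genes, and 7 in WT replicate 2 against 24.8%. In *TPdh*-/- replicates 1, 2 and 3 the counts were 6, 7 and 9, against 15.3%, 16.5% and 27.9% of all genes. The mean of the WT counts was 7.5 ± 0.707 (SD, n = 2), and that of the *TPdh*-/- counts 7.33 ± 1.53 (SD, n = 3), a difference smaller than the spread between libraries. All 9 genes had a promoter peak in at least 1 library, and 5 (*Lck*, *Zap70*, *Lat*, *Plcg1* and *Ptprc*) had one in every library, where 10.9% of all protein-coding genes did so and 56.7% had none in any. At *Lck* and *Plcg1* the peaks lay at different start sites, and no single region was called in every library. The 9 genes have 4 to 12 annotated start sites each, and all genes were not matched to them in this number. From start sites of principal transcripts only, the counts were 8 and 7 in WT and 5, 6 and 8 in *TPdh*-/- libraries. The share of all genes from these start sites was not determined. Counted from any start site, the share of the 9 genes was above the share of all genes in each library. With every list shortened to the same number of peaks by −log10 q, the counts were 3 and 3 in WT, where 19.8% and 17.1% of all genes had a promoter peak, and 6, 5 and 4 in *TPdh*-/- libraries, where 15.3%, 15.8% and 18.7% did.

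**Figure D1:**
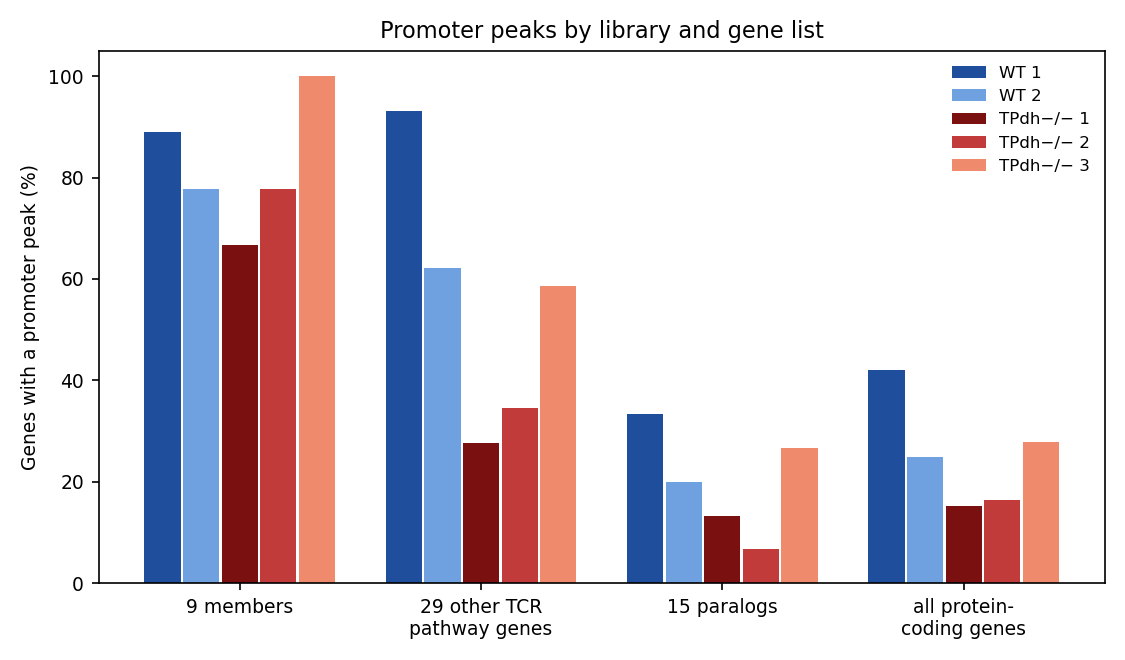
Percentage of genes with a peak within 3000 bp of a start site, by library, for the 9 members, 29 other genes of the TCR pathway, 15 paralogs of the members and all protein-coding genes, with one bar per library. The members sit between 66.7% and 100%, above all genes in each library, while the bars of all genes run from 15.3% to 42.1%.

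Within the 9 windows, 29 and 19 peaks were called in the WT libraries and 9, 12 and 17 in the *TPdh*-/- libraries, a mean of 24 ± 7.07 (SD, n = 2) against 12.7 ± 4.04 (SD, n = 3). Per 1000 peaks of its own list, each library had 1.82 and 2.14 in WT and 1.83, 2.21 and 1.81 in *TPdh*-/- cells. The higher number in WT was therefore not seen once the length of the list was taken into account. Dividing by list length, or shortening lists to equal length, also removes any loss of peaks across the genome. The paper reports fewer acetylated sites in *TPdh*-/- cells, and these measures cannot tell such a loss from a technical difference between lists. Peaks covered 49.4 and 26.5 kb in WT and 8.38, 16.3 and 22.9 kb in *TPdh*-/- libraries, and both WT values lay above all *TPdh*-/- values. With lists of equal length, the covered length was 7.41 and 15.1 kb in WT and 8.38, 14.6 and 11.2 kb in *TPdh*-/- libraries, and the groups overlapped. A peak list from whole cultures cannot tell fewer cells with the mark from less of the mark per cell.

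Of 86 peaks at these genes, of which WT replicate 1 gave 29, 61 were wider than the median of their own list (855 to 1150 bp), with widths from 559 to 3459 bp, and 70 had a fold below that median (2.40 to 2.65), with folds from 1.53 to 2.99. The exception in width was *TPdh*-/- replicate 1, where 4 of 9 peaks were wider than the list's median, while in the other lists 22 of 29, 14 of 19, 9 of 12 and 12 of 17 were. Of the 86, 36 lay above the 50th percentile of strength.
Overlapping peaks, sharing at least 1 bp, formed 31 regions, 14 at a start site of the gene itself, 13 in the gene body and 4 in the flanks. A peak was present in all 5 libraries at 6 regions, against 16.8% of all 18410 merged regions of the lists, in 4 libraries at 5, in 3 at 5, in 2 at 6 and in 1 at 9. Only WT libraries had a peak at 12 regions, against 41.1% of all merged regions, and 7 of these were in WT replicate 1 alone. Both WT libraries and no *TPdh*-/- library had a peak at 4 of the 31 regions, in *Fyn* and *Plcg1*, against 5.92% of all merged regions. This number was 0 with lists of equal length and with peaks of −log10 q 2 or more. No region (0) had a peak in all 3 *TPdh*-/- libraries and no WT library, against 0.0272% of all merged regions, and 1 region was called in *TPdh*-/- replicate 3 alone.

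**Figure D2:**
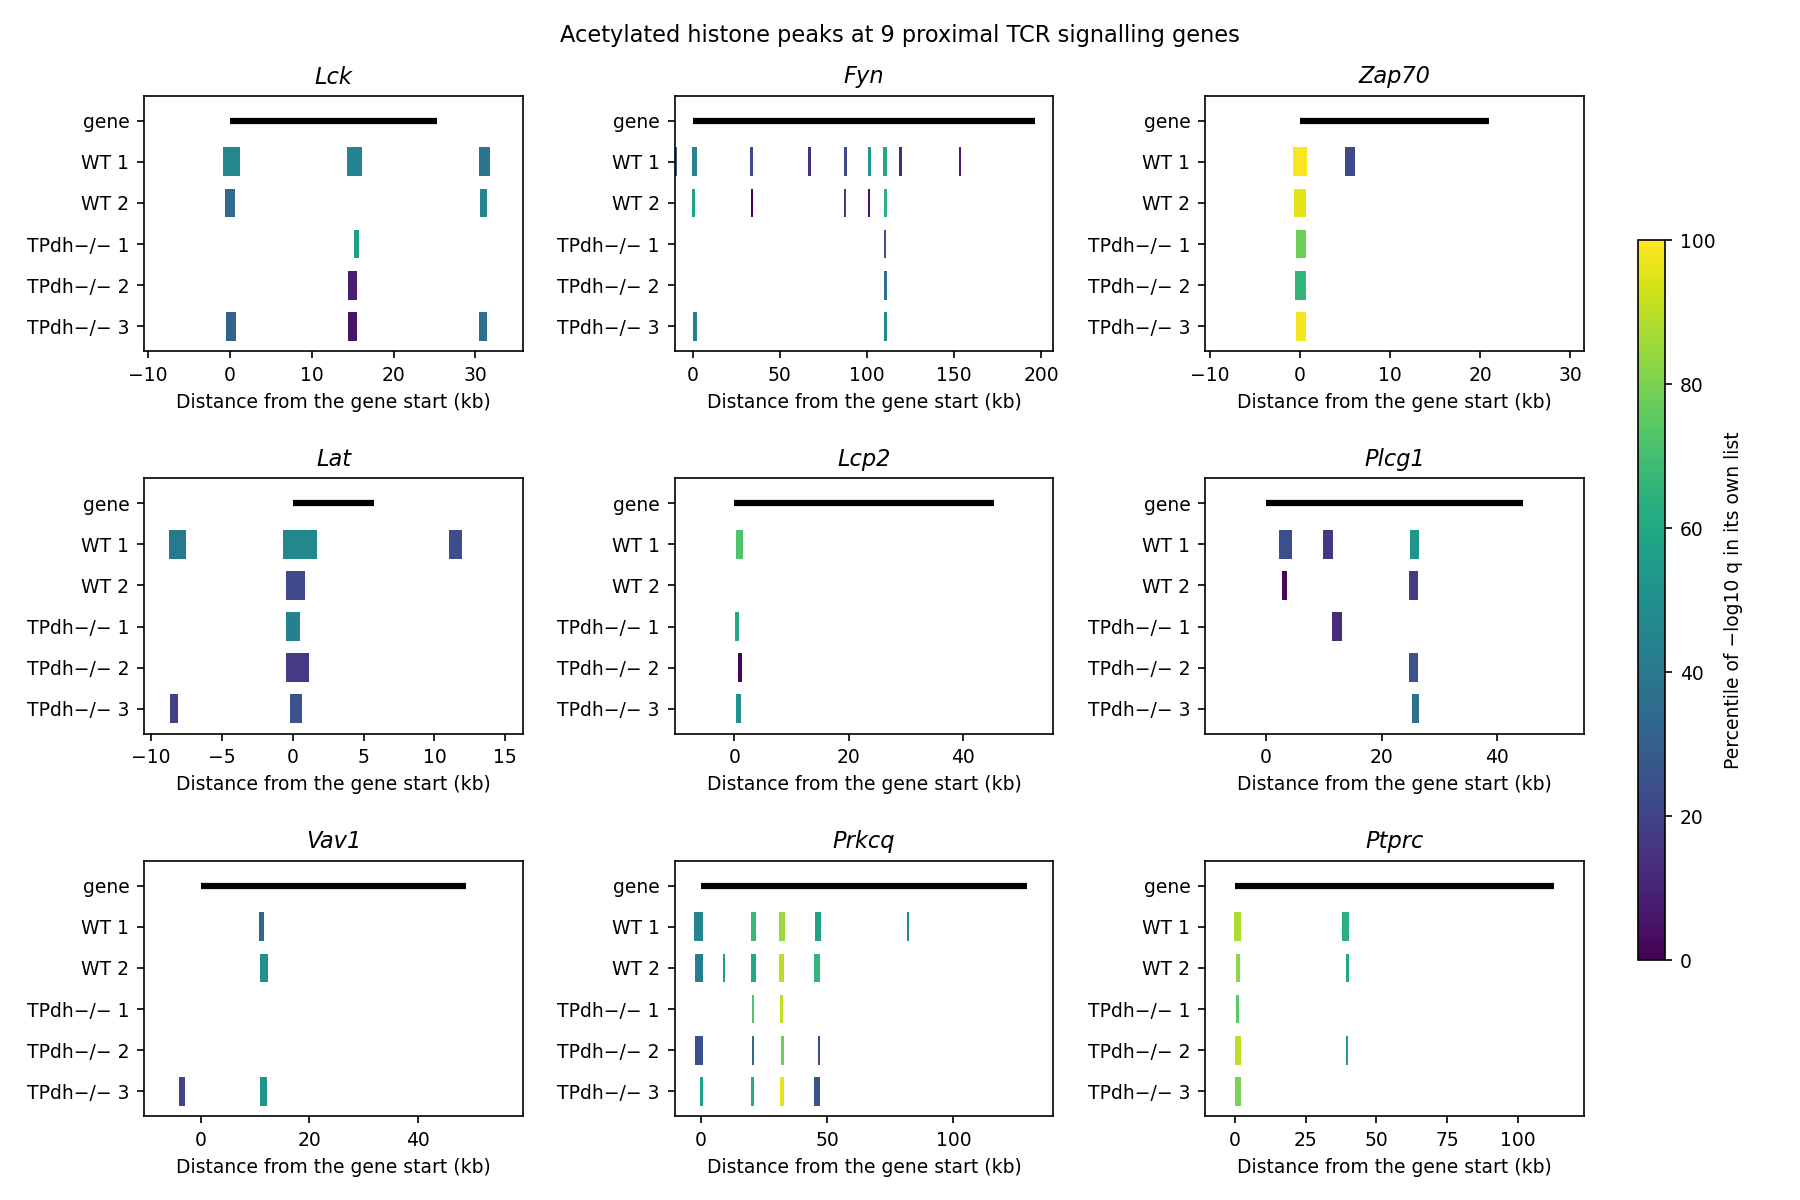
Peaks of each library along the 9 genes, with distance from the gene start in the direction of transcription in kb on the horizontal axis, the gene as a black line and one row per library. Colour gives the percentile of −log10 q within the library's own list, and very narrow peaks are drawn at a minimum visible width. The *Zap70* promoter and the *Prkcq* region 31916 bp into the gene are present and bright in all 5 rows, while most peaks in the body of *Fyn* are in WT rows.

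*Ptprc* (chromosome 1, 138062861 to 138175708, − strand) encodes CD45, the receptor phosphatase that activates Src family kinases in T cells. A promoter peak was called in every library, over annotated start sites in 4 and, in *TPdh*-/- replicate 1, starting 113 bp downstream of the nearest of them. Its percentile was 87.8 and 82.7 in WT and 74.6, 90.6 and 79.4 in *TPdh*-/- replicates 1, 2 and 3, with folds of 2.01 and 2.13 against 2.26, 2.32 and 2.04. The groups overlapped in percentile (exact permutation test, two-sided p = 0.6). Its width was 2236 and 1432 bp in the WT lists, against 595, 1989 and 2060 bp in the *TPdh*-/- lists, and was smallest in *TPdh*-/- replicate 1. An intronic region centred 39106 bp into the gene was called in WT replicates 1 and 2 at the 63.3 and 60.0 percentile and in *TPdh*-/- replicate 2 at the 55.3 percentile. Peaks covered 4.47 and 2.33 kb in WT and 0.60, 2.69 and 2.06 kb in *TPdh*-/- libraries.

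*Lck* (chromosome 4, 129548344 to 129573641, − strand) encodes the kinase that phosphorylates the receptor chains first, and is known for a distal promoter used in mature T cells and a proximal one used mainly in thymocytes. At the distal promoter, whose sequence holds the RUNX core match, a peak was called in WT at the 46.4 and 35.0 percentile and in *TPdh*-/- replicate 3 at the 31.4 percentile, with folds of 1.71, 1.90 and 1.80. At the proximal promoter, centred 15177 bp downstream of the gene start, a peak was called at the 43.9 percentile of WT replicate 1 and the 55.3, 8.3 and 4.7 percentile of *TPdh*-/- replicates 1, 2 and 3, but not in WT replicate 2. *TPdh*-/- replicates 1 and 2 thus had a peak at the proximal promoter alone, WT replicate 2 at the distal alone, and the other 2 libraries at both. In *TPdh*-/- replicates 2 and 3 the proximal peak was among the weakest of the list, with a −log10 q of 1.43 and 1.37.
The *Lck* window also reached the promoter of *Hdac1*, a histone deacetylase gene, where a peak was called at the 38.7 and 45.6 percentile in WT and the 36.7 percentile in *TPdh*-/- replicate 3. In WT replicate 1 the distal peak also came within 3000 bp of the start of *Fam167b*. Peaks of the whole window covered 5.28 and 1.97 kb in WT and 0.60, 1.06 and 3.24 kb in *TPdh*-/- libraries, and the groups overlapped (exact permutation test, p = 0.4).

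*Fyn* (chromosome 10, 39368855 to 39565381, + strand) encodes the second Src family kinase of the receptor complex and, after *Prkcq*, had the greatest covered length of the 9. Peaks covered 13.69 and 5.68 kb of its window in WT and 1.28, 1.58 and 4.05 kb in *TPdh*-/- libraries, with 9 and 5 peaks against 1, 1 and 2. Both WT values lay above all *TPdh*-/- values, a difference of 7386 bp (9689.5 ± 5663 bp, SD, n = 2, against 2303 ± 1520.5 bp, SD, n = 3), at the smallest p that an exact permutation test of 2 against 3 libraries allows (two-sided p = 0.2, adjusted p = 0.769 over 12293 genes). With lists of equal length the sign of this difference changed, to −0.294 kb.
The promoter of *Fyn* was called in WT at the 43.1 and 57.8 percentile and in *TPdh*-/- replicate 3 at the 42.4 percentile, and had no peak in *TPdh*-/- replicates 1 and 2. It was the member whose promoter percentile, set to 0 with no peak, lay higher in both WT libraries than in all *TPdh*-/- libraries, with WT replicate 1 only just above *TPdh*-/- replicate 3 (exact permutation test, two-sided p = 0.2, adjusted p = 0.911 over 9478 genes). This separation was lost with lists of equal length, where percentiles stayed those of the full lists and a removed promoter peak counted as 0. Across those genes 21.1% were separated in this direction and 0.369% in the other.
An intronic region of *Fyn*, 110381 bp from the gene start, was called in every library, at the 60.0 and 64.3 percentile in WT and the 22.3, 37.1 and 48.4 percentile in *TPdh*-/- replicates 1, 2 and 3. Its folds were 1.97 and 2.23 against 2.10, 2.18 and 2.05. The percentiles were higher in both WT libraries than in any *TPdh*-/- library, while the folds overlapped. The share of all merged regions separated in this way by percentile was not determined, so this is described for the 1 region only. In addition 3 regions of the gene body, centred 33706, 87548 and 101208 bp from the start, were called in each WT library but in none of the *TPdh*-/- libraries. The second of them lies within 3000 bp of internal start sites. In WT replicate 2 these had percentiles of only 1.6, 16.1 and 5.2, and in WT replicate 1 of 22.6, 21.2 and 52.1. The remaining 4 regions, 3 in introns and 1 in the upstream flank, were called in WT replicate 1 alone.

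*Zap70* (chromosome 1, 36761798 to 36782818, + strand) encodes the kinase that binds the phosphorylated receptor chains, and its promoter carried the strongest peak of the 9 genes in WT libraries and in *TPdh*-/- replicate 3. The percentile was 99.1 and 95.6 in WT and 78.0, 66.3 and 98.6 in *TPdh*-/- replicates 1, 2 and 3, which are ranks 149 and 387 in WT and 1081, 1825 and 129 in *TPdh*-/- lists. The folds were 2.99 and 2.86 in WT and 2.60, 2.40 and 2.93 in *TPdh*-/- libraries, with widths of 1523 and 1260 bp and 1087, 1213 and 1193 bp. By percentile and fold, *TPdh*-/- replicate 3 lay between the WT libraries, and *TPdh*-/- replicates 1 and 2 lay below both (exact permutation test of the percentile, two-sided p = 0.4, adjusted p = 0.911). By width all 3 *TPdh*-/- libraries lay below both WT libraries, as at 33.5% of the 3099 merged regions called in all 5 libraries. The peak was centred on the start site and so covers the promoter sequence with the CCGGAA match. Peaks covered 2.64 and 1.26 kb in WT and 1.09, 1.21 and 1.19 kb in *TPdh*-/- libraries (exact permutation test, p = 0.2), and part of the higher value of WT replicate 1 was a second peak 5594 bp into the gene that no other library had.

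*Lat* (chromosome 7, 126363824 to 126369570, − strand) encodes the membrane adaptor on which the signalling complex assembles. Its promoter had a peak in every library, at the 46.5 and 22.3 percentile in WT and the 43.5, 17.4 and 24.3 percentile in *TPdh*-/- replicates 1, 2 and 3, with folds of 2.32 and 2.32 against 2.91, 2.53 and 2.53. The percentiles overlapped (exact permutation test, p = 0.6), and the folds were higher in all 3 *TPdh*-/- libraries. Of the 3099 merged regions called in all 5 libraries, 11.6% were separated by fold in this direction. The median folds of whole lists were 2.40 and 2.54 in WT and 2.65, 2.58 and 2.48 in *TPdh*-/- libraries, and these overlapped. The start of *Spns1* lies within 3000 bp of the *Lat* promoter peak, so this peak cannot be assigned to one of the genes. A second region near *Spns1*, in the flank, was called in WT replicate 1 at the 40.6 percentile and in *TPdh*-/- replicate 3 at the 19.5 percentile.
*Lcp2* (chromosome 11, 34046920 to 34092295, + strand) encodes the adaptor SLP-76. It had a single region, just downstream of its start, at the 72.1 percentile in WT replicate 1 and the 59.4, 1.0 and 50.4 percentile in *TPdh*-/- replicates 1, 2 and 3, with no peak in WT replicate 2. Of the 9 genes it had the least covered length, 1.24 and 0 kb in WT against 0.65, 0.72 and 0.87 kb in *TPdh*-/- libraries, and the group means differed by less than the spread of the WT libraries (622 ± 879.6 bp against 747 ± 109 bp, exact permutation test, p = 0.8).

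*Vav1* (chromosome 17, 57279100 to 57328031, + strand) encodes an exchange factor that links the receptor to the actin cytoskeleton. No library had a peak over its annotated start. The peak counted at its promoter, in *TPdh*-/- replicate 3 at the 20.2 percentile, ended 2949 bp upstream of the start and was not counted with a limit of 1000 bp. An intronic region centred 11498 bp into the gene was called in WT at the 33.2 and 49.4 percentile and in *TPdh*-/- replicate 3 at the 52.2 percentile, with folds of 2.27 and 2.62 against 2.68. *TPdh*-/- replicates 1 and 2 had no peak in the window.
*Plcg1* (chromosome 2, 160731300 to 160775760, + strand) encodes the phospholipase that makes inositol trisphosphate and diacylglycerol. Peaks covered 5.61 and 2.57 kb in WT and 1.78, 1.48 and 1.26 kb in *TPdh*-/- libraries, and the groups did not overlap (exact permutation test, p = 0.2, adjusted p = 0.769). The direction turned with lists of equal length, to −1.08 kb. A region 25556 bp into the gene, near the starts of short internal transcripts, was called at the 52.3 and 17.7 percentile in WT and the 25.1 and 37.6 percentile in *TPdh*-/- replicates 2 and 3. Closer to the start, 3366 bp into the gene, a region was called in both WT libraries alone, at the 24.2 and 1.7 percentile. A further region 11502 bp into the gene was called in WT replicate 1 at the 16.4 and in *TPdh*-/- replicate 1 at the 12.4 percentile. Counted only from the start sites of the principal transcripts, its promoter had a peak in both WT libraries and in no *TPdh*-/- library.

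*Prkcq* (chromosome 2, 11172108 to 11301222, + strand) encodes protein kinase C theta, which carries the diacylglycerol signal to NF-κB and AP-1 in T cells. It had the greatest mean covered length of the 9 genes, 10.78 and 9.88 kb in WT against 1.38, 5.98 and 6.21 kb in *TPdh*-/- replicates 1, 2 and 3. The groups did not overlap, with a difference of 5809 bp (10330.0 ± 638 bp, SD, n = 2, against 4521 ± 2727 bp, SD, n = 3, exact permutation test, p = 0.2, adjusted p = 0.769). *TPdh*-/- replicate 1, the shortest list, had the lowest value. The difference was 0.774 kb with lists of equal length, and the groups then overlapped.
Its strongest peak was not at the promoter but in an intron, centred 31916 bp from the gene start, where every library had a peak at a high percentile, 84.8 and 89.5 in WT and 90.9, 78.0 and 95.8 in *TPdh*-/- replicates 1, 2 and 3. The folds were 2.07 and 2.29 in WT and 2.70, 2.35 and 2.54 in *TPdh*-/- libraries, higher in all 3 of the latter, and the widths were 2402 and 1969 bp against 761, 1240.0 and 1616 bp, lower in all 3. Of the 3099 merged regions called in all 5 libraries, 11.6% were separated in this way by fold and 33.5% by width. The median widths of the *TPdh*-/- lists as a whole (855, 896 and 1025.5 bp) were below that of WT replicate 1 (1150 bp). The median of WT replicate 2 (987 bp) lay below that of *TPdh*-/- replicate 3, so the groups overlapped in median list width. A second intronic region, 20818 bp from the start, was also called in every library, at the 67.3 and 59.7 percentile in WT and the 71.9, 34.7 and 62.4 percentile in *TPdh*-/- libraries.
The promoter of *Prkcq* was called at the 45.5 and 42.0 percentile in WT and the 24.5 and 57.6 percentile in *TPdh*-/- replicates 2 and 3, with no peak in replicate 1. In 3 of the 4 libraries this peak extended over more than 3000 bp, with widths of 3459 and 3222 bp in WT and 3073 bp in *TPdh*-/- replicate 2, at folds of 1.53, 1.63 and 1.73. A further intronic region, 46045 bp from the start, was called at the 57.6 and 65.6 percentile in WT and the 22.1 and 26.2 percentile in *TPdh*-/- replicates 2 and 3.

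**Figure D3:**
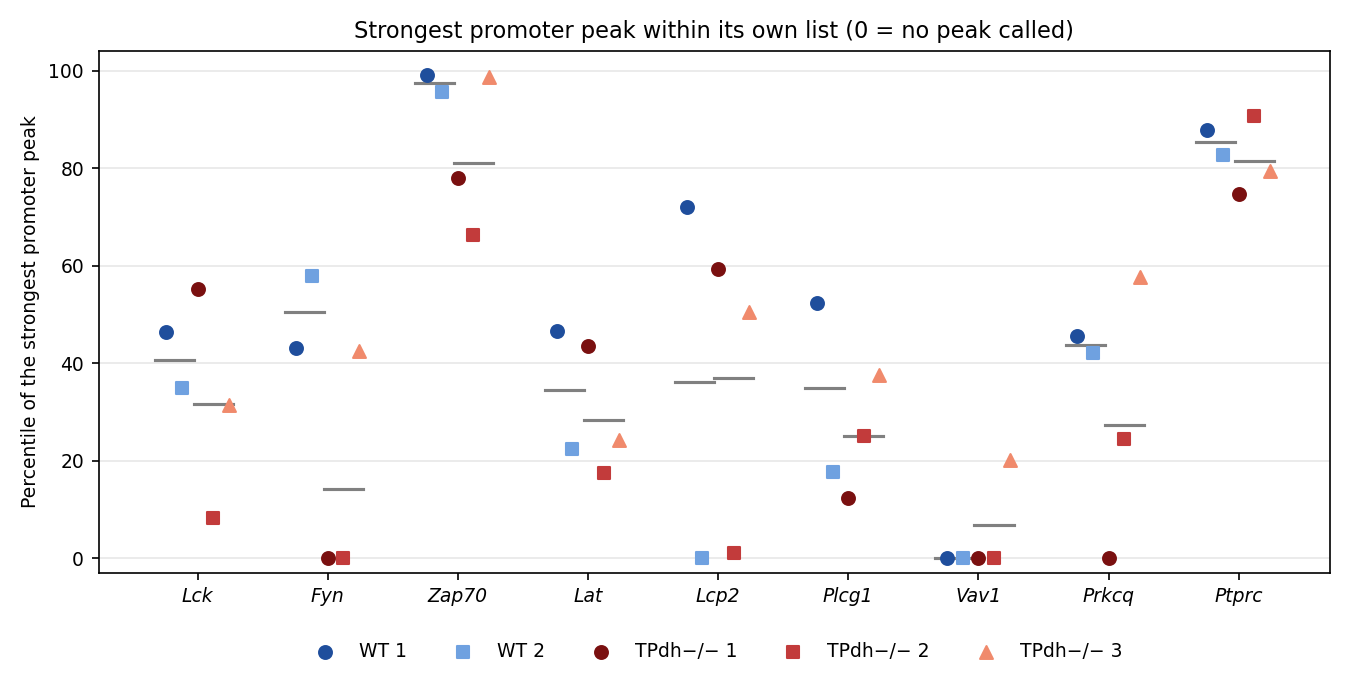
Percentile of the strongest promoter peak of each member in each library, where 0 means that no peak was called, with one point per library and grey lines at group means. The *Zap70* and *Ptprc* points lie between 66.3 and 99.1 in all 5 libraries, and *Fyn* is the one gene with both WT points above all *TPdh*-/- points.

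Over the 9 genes, covered length in both WT libraries lay above that in all *TPdh*-/- libraries at 4 (*Fyn*, *Zap70*, *Plcg1* and *Prkcq*), where 25.9% of 12293 genes with a peak in their window were separated in this direction and 0.0569% in the other. At the other 5 genes the groups overlapped, with p from 0.4 to 0.8 (exact permutation test). With 2 libraries against 3 the libraries can be arranged in 10 ways, and the two-sided p (the smaller one-sided p doubled) is at least 0.2, so no gene could pass 0.05. With lists of equal length, 1 gene, *Zap70*, was separated in this direction in place of 4, at 1.52 and 1.26 kb in WT against 1.09, 1.21 and 1.19 kb in *TPdh*-/- libraries.
By mean covered length over the 5 libraries the order was *Prkcq* (6.84 ± 3.73 kb, SD, n = 5), *Fyn* (5.26 ± 5.05 kb), *Plcg1* (2.54 ± 1.79 kb), *Lck* (2.43 ± 1.89 kb), *Ptprc* (2.43 ± 1.39 kb), *Lat* (2.01 ± 1.48 kb), *Zap70* (1.48 ± 0.653 kb), *Vav1* (1.02 ± 1.07 kb) and *Lcp2* (0.697 ± 0.452 kb). As a percentage of its window, which allows for gene length, the order was led by *Lat* (7.81 ± 5.76%), *Lck* (5.36 ± 4.17%) and *Prkcq* (4.59 ± 2.50%), and *Fyn* stood lower (2.43 ± 2.33%). The third place of *Plcg1* rested on the WT libraries, since its *TPdh*-/- mean of 1506 bp was below those of *Ptprc* (1782 bp) and *Lck* (1633 bp). Neighbours in either order differed by less than the larger of their SDs.

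**Figure D4:**
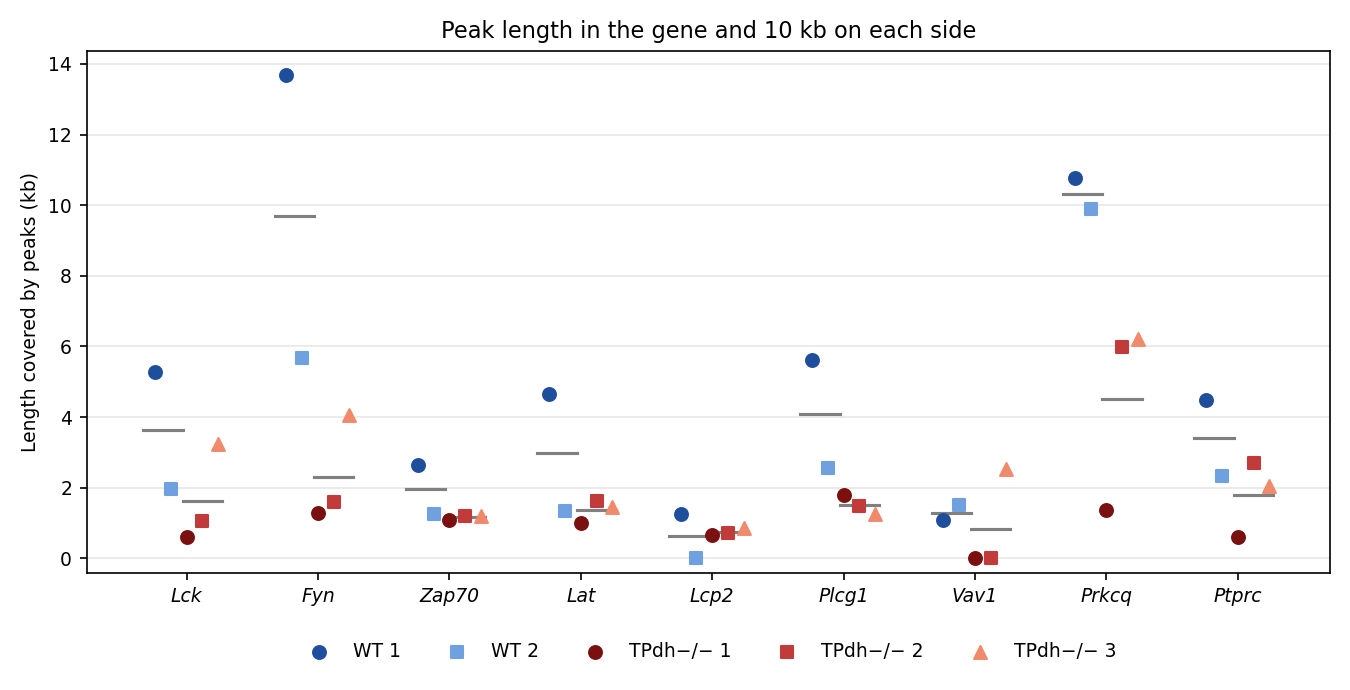
Length covered by peaks in the gene and 10 kb on each side, in kb, for each member and library, with one point per library and grey lines at group means. *Fyn* and *Prkcq* have the highest WT values, up to 13.69 and 10.78 kb, and WT replicate 1 is the highest library at every gene but *Vav1*.

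The gene whose covered length over the 5 libraries was most like that of *Prkcq* was *Ppm1h*, with a root mean square difference of 1508 bp, followed by *Trio* (1861 bp) and *Gatad2a* (1901 bp). Peaks covered 11944 and 7441 bp of *Ppm1h* in WT, against 3384, 5779 and 6219 bp in *TPdh*-/- libraries.
Of 29 other genes of the TCR pathway, 27 and 18 had a promoter peak in WT and 8, 10 and 17 in *TPdh*-/- libraries. With lists of equal length the counts were 11 and 11 in WT and 8, 9 and 10 in *TPdh*-/- libraries. A peak was present in all 5 libraries at 7 of them. These were the phosphatase gene *Ptpn6*, which encodes SHP-1, *Ubash3a*, an inhibitor of TCR signalling, the adaptor genes *Sh2d2a* and *Nck1*, the Ras exchange factor gene *Rasgrp1*, the diacylglycerol kinase gene *Dgka* and the inositol trisphosphate kinase gene *Itpkb*. The strongest were *Sh2d2a*, at the 96.9 and 93.1 percentile in WT and the 91.5, 81.3 and 92.9 percentile in *TPdh*-/- libraries, and *Dgka*, at the 90.9 and 96.8 percentile in WT and the 77.2, 91.8 and 77.1 percentile in *TPdh*-/- libraries.
At 5 of the 29, the kinase gene *Csk*, which restrains Lck, *Ubash3b*, *Themis*, *Sh2d1a* and the diacylglycerol kinase gene *Dgkz*, each WT library and none of the *TPdh*-/- libraries had a promoter peak, and no gene (0) had the reverse pattern. *Csk* was at the 54.7 and 39.8 percentile in WT, and *Ubash3b* at the 60.8 and 56.0 percentile. *Themis* was at 44.4 and 22.4, *Sh2d1a* at 60.0 and 14.8, and *Dgkz* at 45.0 and 43.3. The peaks of all 5 in WT replicate 1 were too weak to stay in lists of equal length, so this pattern was then lost. Of the 9 members, 0 had either pattern. Of all 21911 protein-coding genes, 2.2% had the first pattern and 0 (0%) the reverse, and the contrast between the lists was not tested. The 2 genes with no promoter peak in any library were *Pag1* and *Pik3cd*.
Of 15 paralogs of the members, most of them used mainly in other cells, 5 and 3 had a promoter peak in WT and 2, 1 and 4 in *TPdh*-/- libraries, none (0) had one in all 5, and 10 had none in any. *Fgr*, a Src family kinase gene of myeloid cells, was called in both WT libraries alone, at the 14.0 and 28.3 percentile.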

How the data were processed

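The study's ChIPseq of acetylated histones was read from 5 deposited broad peak lists, 2 of WT and 3 of *TPdh*-/- TM cells. The authors aligned reads to GRCm38/mm10 with BWA (0.7.17), kept uniquely mapping reads outside blacklisted regions with Samtools (1.15.1), and called broad peaks for each library with MACS2 (2.2.6). The use of an input control is not given in the sources used here. The deposited lists hold for each peak a display score, a fold enrichment (a ratio on a linear scale) and −log10 p and −log10 q, all as the authors' peak caller wrote them. They hold no read counts, so the depth behind a peak is unknown and counting error cannot be stated. The score was not used.

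Genes and start sites were those of the GENCODE M21 annotation of GRCm38, with 141730 transcripts of 55413 genes. A window was the gene body with 10 kb on each side, and a promoter lay within 3000 bp of any start site of the gene. Peaks were joined where they shared 1 bp. Peaks were ranked within their own list by −log10 q. Groups were compared for each gene by an exact permutation test, two-sided, with Benjamini-Hochberg adjustment over all genes tested, in Python 3.11.15 with numpy 2.4.6, pandas 2.3.3 and matplotlib 3.10.9. Counts over the members were given without a test. On simulated lists all 200 genes were recovered with the peaks they were given. The authors' differential analysis needs reads and was not repeated.

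The members and the gene lists were chosen with earlier results of these data known. The genes named are the 9 members, genes whose start lies at a region in a member's window, and, of the pathway and paralog lists, those with a promoter peak in all 5 libraries or whose calls separate the groups, with the 3 genes most like the member of greatest covered length. Other genes named with values were chosen after those were seen. Sequences were printed for the promoters called in the most and the fewest libraries, and the others were chosen after their values were seen. The alternatives tried were lists of equal length, peaks with −log10 q from 2 or from 5 upwards, no flank or 5 kb, peak midpoints, promoters within 1000 bp, no peaks at other coding promoters, start sites of protein-coding transcripts, leaving out each library in turn, and keeping only the replicate numbers that both groups have. The last is the same as leaving out *TPdh*-/- replicate 3. Start sites of principal transcripts were added after the data were seen.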

Additional observations from a re-analysis of the deposited data

How the results depend on the processing

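All values here are WT minus *TPdh*-/- differences or counts over the 9 genes. With peaks of −log10 q 2 or more, the difference in members with a promoter peak was 1.5 (0.167 as reported), regions called in both WT and no *TPdh*-/- library numbered 0 (4 as reported), and genes separated by covered length 2 (4 as reported). With 5 or more, the values were 1.5 members, 2.83 peaks (11.3 as reported), 5.56 kb covered (22.1 as reported), 0 regions in all libraries (6 as reported), 0 regions in WT alone, 2 genes by covered length and 0 by promoter percentile (1 as reported). With lists of equal length, the values were −2 members, −1.5 peaks, −0.154 kb, −0.305 peaks per 1000 of the list (0.0312 as reported), 2 other pathway genes (10.8 as reported), 3 regions in all libraries, 0 in WT alone, and 1 gene by covered length and 0 by percentile. With start sites of principal transcripts, 2 genes were separated by percentile. Leaving out a library gave 10.7 to 33.6 kb, and 4 to 11 regions in every remaining WT library and no remaining *TPdh*-/- library. The 11 was without WT replicate 2, where WT replicate 1 alone stood for WT. The ranges were 0 to 2 for regions in every *TPdh*-/- library alone (2 without WT replicate 1), 4 to 8 for genes by covered length and 1 to 5 by percentile. Without WT replicate 1 the difference in covered length was 10.7 kb, in peaks 6.33 (11.3 as reported), in other pathway genes 6.33 (10.8 as reported) and in covered length 3.38 kb at *Fyn* (7.39 kb as reported), 1.06 kb at *Plcg1* and 0.0957 kb at *Zap70*.

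The groups share the replicate numbers 1 and 2, which the labels do not say pair the samples. Deviations of covered length from the group mean correlated at 0.0961 for number 1 and 0.313 for number 2 over 9 genes. With 2 WT libraries, the deviations of WT replicate 2 are those of WT replicate 1 with the sign turned. The correlations are therefore not separate checks of pairing. With only numbers 1 and 2 kept, 8 regions were in WT alone, 6 genes were separated by covered length and 3 by percentile. No term for the number was fitted, so this is the same setting as leaving out *TPdh*-/- replicate 3.

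For single genes, 104 of 117 covered length differences and 102 of 126 percentile differences kept their sign. These totals hold the values without *TPdh*-/- replicate 3 both as a left-out library and as the setting of shared replicate numbers. The covered length difference with lists of equal length was −0.294 kb at *Fyn*, −0.878 kb at *Lat*, 0.115 kb at *Lcp2* and −1.08 kb at *Plcg1*. At *Lcp2* it was 0.115 kb with −log10 q 2 or more and 0.622 kb with 5 or more. The percentile difference with lists of equal length was −18.4 at *Lck*, −20.3 at *Lat*, −12.5 at *Plcg1* and −27.4 at *Prkcq*. At *Lcp2* the percentile difference was 36.0 with −log10 q 5 or more and 5.83 without *TPdh*-/- replicate 3. In shortened or filtered lists the percentiles stayed those of the full lists, and a promoter whose peaks were removed counted as 0. Longer lists lose more peaks when shortened, so these percentile differences do not compare strength within the shortened lists. Leaving out a library, covered length ranged from −0.0267 to 3.27 kb at *Lat* and −0.747 to 0.497 kb at *Lcp2*, and the percentile difference from −2.67 to 20.8 at *Lck*, −6.09 to 18.1 at *Lat*, −37.0 to 35.1 at *Lcp2* and −7.33 to 27.3 at *Plcg1*.
The cause of these changes was not tested. With 5 lists, no read counts and peaks called separately, a missing call does not show that acetylation was absent.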
